A study of Homo sapiens with 20 samples.

Results

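BMAL1 sites of A498 cells were compared between cells carrying a control shRNA (shCNT) and cells carrying an shRNA against BMAL1 (shBMAL1). A498 is an established line from a clear cell renal cell carcinoma. The members are the 6611 called BMAL1 peaks, of 12171 peaks in the 4 lists of the series: 2350 in the shCNT list and 4261 in the shBMAL1-labelled list. A shCNT peak overlapped by at least 1 bp of a shBMAL1 peak is called kept, a shCNT peak without such an overlap lost, and a shBMAL1 peak without a shCNT partner gained. By this rule 1106 shCNT peaks were kept (47.1%), 1244 were lost (52.9%) and 3151 shBMAL1 peaks were gained (73.9% of that list), and 1110 shBMAL1 peaks are the partners of the kept ones.

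All cells grew in DMEM with fetal bovine serum and were selected with puromycin after lentiviral infection with a pLKO.1 vector. Per the labels, control cells have the genotype WT with shCNT, and the others are a BMAL1 knockdown with shBMAL1, a pool of infected cells of 1 line for each vector. Chromatin was recovered by CUT&RUN, in which a nuclease tethered to an antibody cuts out the DNA next to the bound protein, with a rabbit monoclonal antibody to BMAL1. The labels give 4 libraries for each of these groups, but 1 peak list for each was analysed. The study's methods count the CUT&RUN samples as biological replicates, whereas its reporting summary describes the BMAL1 reactions as technical replicates. Both give fewer for each group than the labels list, and IgG served as the negative control. Whether libraries were pooled for a list, and whether IgG entered the peak calls, is not given in the sources used here, so no difference below could be set against the spread between replicates and no p-value is given.

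BMAL1 is a basic helix-loop-helix PAS protein that pairs with CLOCK or NPAS2 and binds the E-box, whose core reads CACGTG. The pair drives the PER, CRY and REV-ERB genes of the circadian clock and many output genes. Other basic helix-loop-helix factors, such as MYC with MAX and the USF and MiT families, read the same core, and HIF2α with ARNT reads the related hypoxia response element (HRE), ACGTG or GCGTG.

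An E-box in the 200 bp around the summit set lost peaks apart from gained ones, so the E-boxes of the strongest E-box peaks outside 12 clock loci are shown. Each is 30 bases of the GRCh37 plus strand, read 5′ to 3′, and capitals mark the CACGTG nearest to the summit. All 6 of each class are given, kept peaks first, and CYB561 holds a further E-box in lower case. At USP36 and TLE4 the marked E-box lies within the 200 bp but outside the called peak.
RELL1, kept, chr4:37688305-37688334: cacctaagaaggCACGTGgcccatccatgg
AP5S1, kept, chr20:3792544-3792573: agggaggggcctCACGTGgctgggcctcct
BLOC1S3, kept, chr19:45681760-45681789: aattactggttaCACGTGacatactcggct
PPFIBP2, kept, chr11:7627072-7627101: acattctggataCACGTGagatccaagtgg
KHSRP, kept, chr19:6425139-6425168: gttctgaagagtCACGTGgactgtaaggcc
KDM4B, kept, chr19:4968871-4968900: ccggtcagcgggCACGTGggtgggcgccgg
UBE2L5, lost, chr13:30969740-30969769: atgtgacctggaCACGTGacttggagccgg
UBAP2L, lost, chr1:154193173-154193202: ccatccgtgcgtCACGTGgtggaggcaggg
MYO9A, lost, chr15:72410539-72410568: gtcccgcccccgCACGTGacgccactggag
USP36, lost, chr17:76836906-76836935: cggcgcctcacaCACGTGtcaccgcgacgc
TTLL6, lost, chr17:46873056-46873085: gcaagtccttctCACGTGgcagactagcga
KDM6B, lost, chr17:7739026-7739055: gcctgggacccgCACGTGcactcccacacg
SLC22A31, gained, chr16:89268321-89268350: ccgtgagggcggCACGTGggggccgggggc
PDE4A, gained, chr19:10572152-10572181: gttggagctgcaCACGTGggccctcccctg
SNX8, gained, chr7:2354256-2354285: cccctccccgtcCACGTGgacacggagcct
FAM90A1, gained, chr12:8396127-8396156: ttaggacgggccCACGTGgggaggggccca
TLE4, gained, chr9:82186523-82186552: acgcccggccccCACGTGggtttcagctgg
CYB561, gained, chr17:61512677-61512706: cacccacgtgccCACGTGgcgactgtgagc

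The E-box with T before and A after the core, TCACGTGA, was rare in every class. It was present in 5 kept windows (0.452%), 6 lost windows (0.482%) and 6 gained windows (0.190%), against 0.893% of windows of the same length around 56002 annotated protein-coding starts. Tandem E-boxes, that is CACGTG followed after 6 or 7 bases by a hexamer at most 1 base away from it, were present in 7 kept, 5 lost and 1 gained window, which is 0.633%, 0.402% and 0.0317%, against 0.100% of starts. Both motifs contain CACGTG and are counted within it below. Counted per E-box, T before and A after flanked 4.95% in kept, 3.72% in lost and 5.26% in gained windows, against 16.9% at starts. Of the E-boxes in gained windows 14.9% (9.52 to 22.6%) had C before and G after the core, as at FAM90A1 and TLE4, against 7.92% (4.07 to 14.9%) in kept windows, 3.72% (1.82 to 7.48%) in lost windows and 10.5% at starts. Of the variants of the core, CACGTT was present in 5.88% of kept, 6.75% of lost and 3.59% of gained windows and in 3.32% of starts. The variant CATGTG was present in 9.49% of kept, 12.7% of lost and 10.6% of gained windows and in 5.92% of starts. Counting also CACGCG and the variant CACGAG, 24.1% of kept, 24.2% of lost and 20.2% of gained windows held a variant but no CACGTG, as did 21.0% of starts. These are shares of all windows, those with CACGTG included.

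The classes turn on small distances for some peaks. The median overlap of kept peaks was 201 bp and 37 overlapped by under 50 bp. Just inside the rule, the peak at TXNDC9, a thioredoxin domain gene (chr2:99952917-99953053), shared 1 bp with its shBMAL1 partner. Just outside it, a lost peak near TNS3, which encodes the focal adhesion protein tensin 3 (chr7:47611481-47611895), lay 1 bp from a gained peak. The median gap of a lost peak to the nearest shBMAL1 peak was 62.9 kb, and 53 lost peaks lay within 400 bp of one.

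Strength was compared only as a percentile of the peak's own list, by the deposited −log10 p, where 100 is the strongest peak. Kept peaks had a median percentile of 61.4 in the shCNT list, and lost peaks had 37.7. Gained peaks had a median percentile of 37.7 in the shBMAL1 list, where the partners of kept peaks had 72.1. Above the 90th percentile lay 15% of kept, 4.66% of lost and 4.35% of gained peaks. The lists also differed in depth, with a median pileup of fragments at the summit of 6 and 5 and a genome background of 0.168 and 0.0839 fragments per position, shCNT first. A pileup of 3 was enough for a peak in the shBMAL1 list and 4 in the shCNT list, and 1698 shBMAL1 peaks had a pileup of at most 4. With a pileup of at least 5 in both, 2104 shCNT and 2563 shBMAL1 peaks were left. When shCNT peaks were held to what would still pass at the shBMAL1 depth, 1213 were left, 532 of them lost. The difference in median percentile between kept and lost peaks was then 9.0 points, against 23.7 over all peaks. Percentiles stayed those of the full list, so leaving out weaker peaks narrows this difference in itself, and the part of depth was not tested.

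The number of BMAL1 peaks was higher in the list labelled shBMAL1, against the direction of its label, and BMAL1 RNA or protein was not measured in these files. The shCNT list also held 14 peaks with the summit in a coding exon of BMAL1 itself, on chromosome 11, none elsewhere in the BMAL1 region, and the shBMAL1 list held none on these exons. They were 13 of the 15 strongest shCNT peaks, with pileups from 52 to 834 and local backgrounds from 10.2 to 87.3, and they overlapped 18 of 20 distinct coding segments. A peak at the start of EEF1A1 (chr6:74229771-74230979), the gene of a translation elongation factor, had a pileup of 835 and a background of 117. These 15 were the shCNT peaks with a background over 3, and no shBMAL1 peak had one. Other shCNT peaks reached a pileup of 84 and shBMAL1 peaks of 76. Whether these 15 mark BMAL1 binding was not tested. All are lost by the rule and are left out of the comparisons by strength below.

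The E-box was most frequent in lost peaks and least frequent in gained ones. It was present in 168 of 1244 lost windows (13.5%, Wilson 95% interval 11.7 to 15.5%), in 92 of 1106 kept windows (8.32%, 6.83 to 10.1%) and in 109 of 3151 gained windows (3.46%, 2.88 to 4.16%). Annotated starts carried it in 5.42% of windows, and windows 2 kb to either side of the summits in 2.37%, 3.21% and 2.51% for lost, kept and gained peaks. The difference between lost and kept peaks was 5.19 percentage points (Newcombe interval 2.67 to 7.69), and between gained and kept peaks -4.86 points (-6.73 to -3.22). All intervals cover counting over peaks only, and peaks are not replicates. Outside the 12 clock loci the shares were 13.1% of lost, 7.95% of kept and 3.46% of gained windows.

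The E-box difference held at promoters, here a summit within 1 kb of any annotated start, coding or not, where 17.3% of lost, 9.52% of kept and 5.06% of gained windows had an E-box (lost minus kept 7.83 points, 3.93 to 11.7). At distal peaks the shares were 10.1%, 7.01% and 2.64%, and the interval of lost minus kept (3.05 points, -0.197 to 6.21) included 0. A window of 100 bp reduced the difference between lost and kept peaks to 2.23 points (0.352 to 4.10). E-boxes lay toward the summit in lost and kept peaks, with one within 25 bp of the summit in 3.86% and 2.62% of peaks and one at 175 to 200 bp in 1.05% and 0.995%. In gained peaks these values were 0.793% and 1.24%, so no such gradient was seen.

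Strong shCNT peaks without an E-box were mostly kept, and strong peaks with an E-box were kept less often. Above the 90th percentile, 143 of 167 peaks without an E-box were kept (85.6%, 79.5 to 90.1%), against 23 of 42 with one (54.8%, 39.9 to 68.8%). The difference was -30.9 points (-46.4 to -15.6), and outside the clock loci it was -29.3 points (-46.4 to -12.8). It was -24.7 points between the 75th and 90th percentile, -18.5 between the 50th and 75th, -11.7 between the 25th and 50th and -9.16 below the 25th, and the intervals of the last pair included 0. Seen from the classes, the E-box share of lost peaks ran from 9.14% below the 25th percentile to 44.2% (30.4 to 58.9%, n = 43) above the 90th, and that of kept peaks from 6.01% to 13.9%. Gained peaks had an E-box in 2.87% to 4.38% of windows in every range of strength.

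**Figure D1:**
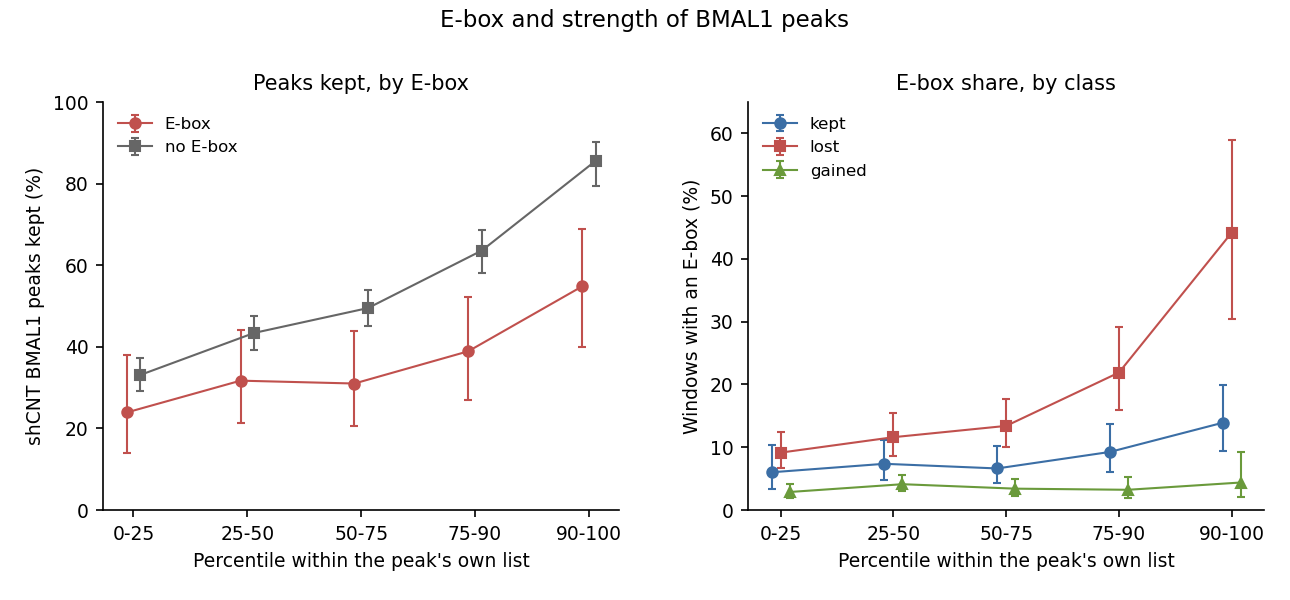
Left, percent of shCNT BMAL1 peaks kept (y axis) by percentile within the list (x axis), with and without an E-box in the 200 bp window. Right, percent of windows with an E-box (y axis) by percentile for kept, lost and gained peaks; bars are Wilson 95% intervals, and the 15 peaks on BMAL1 exons and at the EEF1A1 start are left out. Peaks with an E-box sit below those without one in all 5 ranges, and the lost class rises to 44.2% above the 90th percentile.

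Kept peaks with an E-box that started high in the shCNT list lost rank, and other kept peaks that started as high did so less. Of the kept peaks above the 90th percentile, 20 of 23 with an E-box (87%) ranked lower under shBMAL1, with a median shift of -14.8, against 81 of 143 without one (56.6%), with a median shift of -1.58. Between the 75th and 90th percentile it was 16 of 21 (76.2%, median shift -11.6) against 108 of 206 (52.4%, -0.883). Between the 50th and 75th percentile the median shifts were 0.936 with and 5.56 without an E-box, between the 25th and 50th 23.5 and 27.9, and below the 25th 61.7 (n = 11) and 46.1. Over all kept peaks, which start at a median percentile of 73 with and 61.4 without an E-box, the shifts were -1.34 and 7.45.

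**Figure D2:**
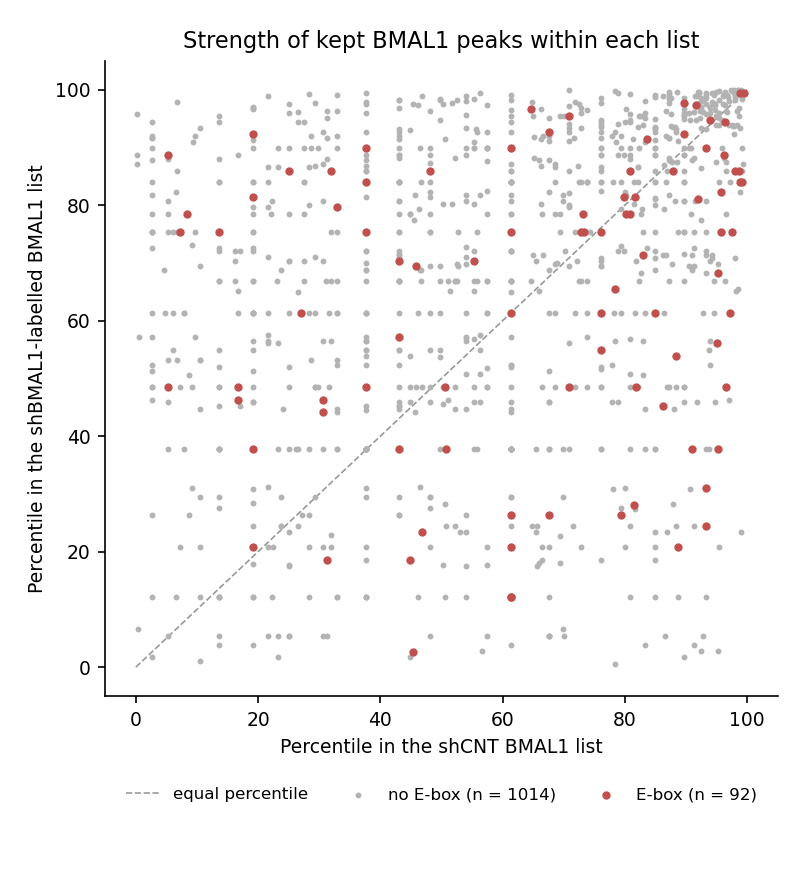
Each point is 1 of the 1106 kept peaks, at its percentile in the shCNT list (x axis) and that of its partner in the shBMAL1-labelled list (y axis), with the 92 E-box peaks in red. 54.3% of E-box peaks and 34.5% of the others lie below the dashed line of equal percentile; rows and columns of points are peaks that share a p-value.

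Kept peaks within 1 kb of a protein-coding start lay at genes with unlike roles. A peak upstream of DKKL1 (chr19:49866767-49867157) stood at percentile 99.0 in shCNT and 99.8 under shBMAL1, and one upstream of TMEM141 (chr9:139685115-139685832) at 99.0 and 99.9. At OSGIN1, a gene induced by oxidative stress, the promoter peak fell from percentile 99.0 to 23.5, and at CYTH2, an exchange factor for ARF GTPases, it went from 98.9 to 93.4. These 4 had no E-box and all had the Sp1 motif GGGCGG. The strongest kept peaks with an E-box were at RELL1 (98.8 and 99.4), at BLOC1S3, a subunit of the complex that builds lysosome-related organelles (98.7 and 85.8), 8623 bp upstream of AP5S1 (98.8 and 83.9), at PPFIBP2 (98.1 and 85.8), at KHSRP, an RNA-binding protein (97.6 and 75.3), and at KDM4B, a histone H3 lysine demethylase (97.2 and 61.3).

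Kept peaks over 1 kb from every annotated start, coding or not, were led by one in the UTR of SDR42E2, 15337 bp upstream of EEF2K, the kinase of elongation factor 2 (99.1 and 99.8). One 6284 bp upstream of SLC7A6 went from 98.7 to 95.4. One 32232 bp downstream of the start of CCNE1, which encodes cyclin E1, stood at 98.6 and 99.9. Another in an intron of CELF5, nearest to NFIC, stood at 98.4 and 100. The widest falls in rank among kept peaks were a peak 289905 bp upstream of NFE2L3 (95.3 to 2.79) and promoter peaks of BICD2 (92.5 to 2.79), SLC35A5 (89.7 to 1.77), TXNDC9 (91.3 to 3.91) and LAMTOR4 (92.7 to 5.41). The widest rises were at ABHD11 (0.106 to 95.7), NEK6 (2.60 to 94.4), PRPSAP2 (6.79 to 97.9), BNC2 (2.60 to 92.0) and CCNYL1 (2.60 to 91.7). None of these 10 had an E-box in the window.

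Lost peaks of high rank were at promoters of LMNA, the lamin A/C gene (chr1:156076078-156076369, percentile 97.6), IRS2, an insulin receptor substrate (97.4), GCSH of the glycine cleavage system (97.4), UBAP2L (97.3), MYO9A (96.9) and ASPH, a hydroxylase (98.6). UBAP2L and MYO9A had an E-box in the window. Further lost E-box peaks were at the start of USP36, a nucleolar deubiquitinase (96.9), 1329 bp upstream of TTLL6 (96.8), 1456 bp downstream of the start of KDM6B, a histone H3 lysine 27 demethylase (95), and 26807 bp upstream of UBE2L5 (98.2). Distal lost peaks without an E-box were led by one 7624 bp upstream of HMOX2, a heme oxygenase gene (97.6), and one 3087 bp upstream of CORO1C (97.2). The pileups behind these peaks ran from 11 to 19 fragments.

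Gained peaks of high rank were at promoters of DLC1, a GTPase-activating protein (99.7), SLC22A31 (99.6), CCNE1 (chr19:30302526-30302929, 99.2), STK32C (99.1), ARRDC1 (98.8) and ZNRF3, a ubiquitin ligase for WNT receptors (98.7). All 6 had the Sp1 motif and 1, SLC22A31, had an E-box. Gained distal peaks were led by one in an intron of TRPM2, 26975 bp upstream of LRRC3 (99.8), followed by one near ABR (98.7), one near ZNF778 (98.6) and one in an intron of PDE4A, a cyclic AMP phosphodiesterase (98.4). None of these 10 gained peaks was overlapped by a HIF2α peak of either list, and of all gained peaks 19.1% were. CCNE1 therefore had a gained peak at its promoter and a kept one downstream.

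Gained peaks lay farther from starts than the others. A summit was within 1 kb of an annotated start for 33.9% of gained peaks, 52.3% of kept peaks and 47.3% of lost peaks, and gained minus kept was -18.4 points (-21.8 to -15.0). The median distance to the nearest annotated start, coding or not, was 4677 bp for gained, 696 bp for kept and 1273.5 bp for lost peaks. Over 50 kb from every such start lay 7.71%, 3.07% and 3.70%. Introns held 50.6% of gained, 43.6% of kept and 44.4% of lost summits, and 35.8%, 42.2% and 36.6% were intergenic. The median GC content of the window was 52.5%, 58.0% and 55.0% in the same order. Within promoters it was 64.5%, 65% and 63.5%.

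Motifs of other factors followed these positions in part. The AP-1 motif TGACTCA, searched on both strands and so also as TGAGTCA, is bound by FOS and JUN dimers. It was present in 618 gained windows (19.6%), 161 kept windows (14.6%) and 173 lost windows (13.9%), against 2.36% of starts and 3.59%, 2.98% and 3.38% of flanks. Gained minus kept was 5.06 points (2.47 to 7.47) over all peaks but 1.10 points (-3.16 to 5.06) among distal peaks, where 25.5% of gained, 24.4% of kept and 21.3% of lost windows had it. It lay toward the summit in all 3 classes, with 5.71% of gained peaks holding one within 25 bp and 1.65% at 175 to 200 bp. Above the 90th percentile of the shBMAL1 list 8.03% of gained windows had AP-1 and 57.7% lay at a promoter, while between the 75th and 90th percentile these shares were 24.9% and 35.8%.

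**Figure D3:**
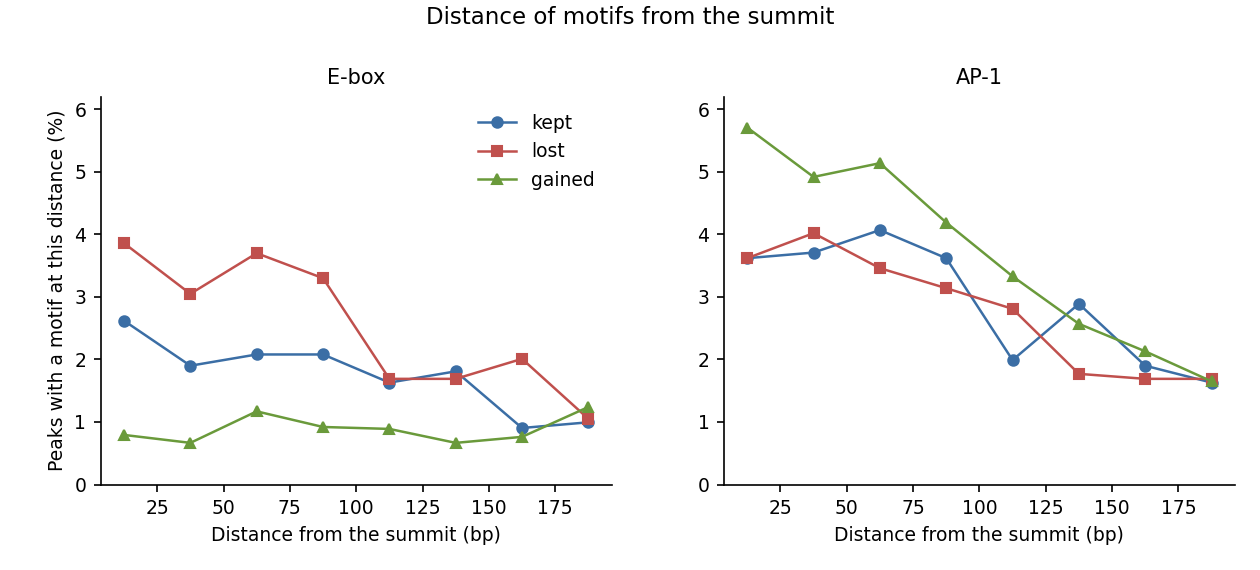
Percent of peaks (y axis) with an E-box (left) or AP-1 motif (right) at each distance from the summit in bp (x axis), for kept, lost and gained peaks. E-boxes of lost peaks fall from 3.86% to 1.05% and those of gained peaks stay between 0.666% and 1.24%, whereas AP-1 motifs are fewer at 175 to 200 bp than within 25 bp in all 3 classes.

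Of the promoter motifs searched, the Sp1 motif, a partial CTCF motif and CCAAT were most frequent in kept peaks. The Sp1 motif GGGCGG was present in 44.6% of kept, 29.6% of lost and 26.1% of gained windows, and in 48.2% of starts. Within promoters the shares were 68.7%, 52.4% and 57.9%, and lost minus kept was -16.3 points (-21.7 to -10.7). Peaks with GGGCGG were kept in 57.3% of cases and those without in 41.6%, and by range of strength the difference lay between 3.99 points above the 90th percentile and 14.2 points between the 75th and 90th, with intervals that included 0 above the 90th and below the 25th. A partial CTCF motif, CNAGGGGGC, was present in 4.70%, 2.17% and 2.38% of kept, lost and gained windows, and in 2.78% of starts. CCAAT, the site of NF-Y, was present in 41.9% of kept, 35.7% of lost and 33.0% of gained promoter windows and in 23.4% of starts. The ETS motif CCGGAAGT went the other way, with 5.27% of lost, 2.08% of kept and 3.09% of gained promoter windows, and 4.67% of starts.

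**Figure D4:**
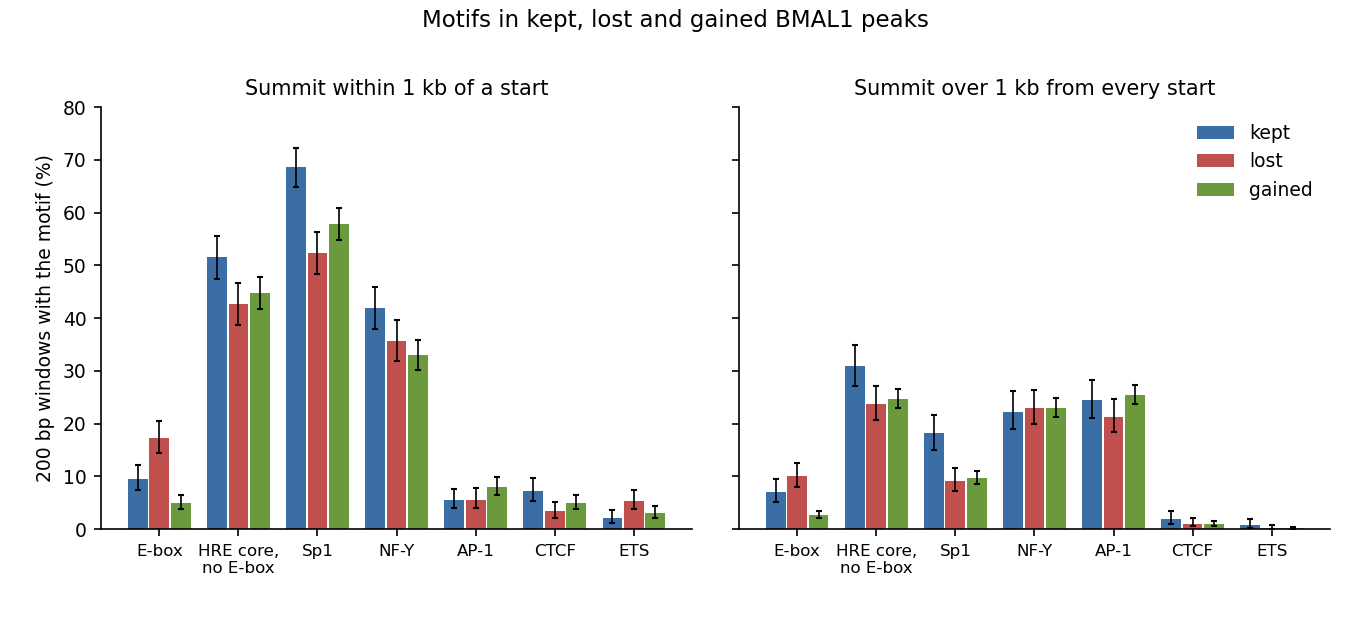
Percent of 200 bp windows with each motif (y axis) for kept, lost and gained peaks, at promoters (left) and distal sites (right), with Wilson 95% intervals. At promoters the E-box bar is highest for lost peaks (17.3%) and the Sp1 bar for kept peaks (68.7%), and at distal sites the AP-1 bars lie between 21.3% and 25.5%.

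The HRE was counted only in windows without CACGTG, since every E-box contains it. Of all windows of a class, 41.7% of kept, 32.7% of lost and 31.5% of gained ones had it, as did 37.3% of starts. E-box windows thus count as having no HRE, and lost peaks had the highest share of them. Lost minus kept was -8.96 points (-12.8 to -5.05), and the part of that rule in this difference was not tested. HIF2α peaks of the shCNT list overlapped 29.5% of kept, 21.1% of lost and 8.6% of gained BMAL1 peaks, and kept minus lost was 8.41 points (4.9 to 11.9). By strength, peaks with such an overlap were kept more often below the 25th percentile (20.2 points, 9.1 to 31.2), and in the 4 stronger ranges the intervals included 0. With a −log10 p of at least 8 the difference was 5.01 points (-0.0660 to 10.1). HIF2α peaks of the shBMAL1 list overlapped 33.8%, 17.0% and 16.3% of the 3 classes, and kept minus lost was then 16.9 points (13.4 to 20.3). Lists of the same shRNA may share a control, and the part of this in the overlaps was not tested.

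Genes were assigned by the nearest protein-coding start. Of 20090 genes, 974 (4.85%) were nearest to a kept, 1108 (5.52%) to a lost and 2444 (12.2%) to a gained peak, and within 1 kb the counts were 509 (2.53%), 508 (2.53%) and 848 (4.22%). Genes with wide intergenic territory are nearest to more peaks, and the part of this in the counts below was not tested.

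Clock partners and regulators outside the 12 loci were nearest to lost peaks in 5 of 22 genes, BMAL1 itself through its exon peaks among them, to kept peaks in 2 and to gained peaks in 6. These shares were 22.7%, 9.09% and 27.3%, beside 5.52%, 4.85% and 12.2% of all genes. Without the exon peaks 4 lost genes were left, and with lists of equal length the gained count was 1. A lost peak lay 391 bp upstream of GSK3B (percentile 76.1) and one at TIMELESS (44.9), and a kept one lay 14635 bp upstream of CSNK1D, the casein kinase that phosphorylates PER (97.1 and 46.3), with a gained E-box peak 19236 bp upstream (37.7). Clock-controlled outputs were nearest to a kept peak in 7 of 20 genes (35.0%), to a lost one in 7 and to a gained one in 5 (25%). For all genes these shares were 4.85%, 5.52% and 12.2%. Kept peaks here included one 39601 bp downstream of the TSC22D3 start (99.1) and one with an E-box 26473 bp upstream of HLF, a PAR-bZIP factor (96.4). Lost ones included NAMPT, the rate-limiting enzyme of NAD salvage, 98 bp upstream of the start (90.8), and promoter peaks of KLF11 (79.4) and KLF9 (43.1), Krüppel-like factors. KLF11 also had a kept promoter peak (80.9 and 56.8). WEE1, a kinase that restrains mitosis, had a gained promoter peak with an E-box (50.6).

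Other E-box-binding factors were present in all classes. Of 22 genes of the MYC, USF and MiT families, 6 (27.3%) were nearest to a kept peak, 5 (22.7%) to a lost one and 5 to a gained one. Beside these, the shares of all genes were 4.85%, 5.52% and 12.2%. In the MAX network of MYC partners and antagonists, kept promoter peaks lay at MXD1 (94.5), MNT (67.6) and MXD4 (48.1) and lost ones at MXI1 (67.6) and MXD3 (57.4), and the MNT, MXD4 and MXD3 windows had an E-box. SREBF1, the sterol regulatory factor, had a kept intronic peak (87.2) and a gained peak with an E-box 562 bp downstream of its start (72.1).

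Translation factors had more lost than kept or gained promoters. Of 68 initiation and elongation factor genes, 7 (10.3%) had a lost peak within 1 kb, 3 a kept and 1 a gained one, beside 2.53%, 2.53% and 4.22% of all genes. Without the EEF1A1 start 6 were left, and shares of lost promoters were higher in clock-controlled outputs (20%), MYC-related factors (13.6%) and sterol synthesis (12.5%). Clock partners had lost promoters at 3 of 22 genes (13.6%), BMAL1 through an exon peak among them, and at 2 without the exon peaks. By nearest gene the lost count of translation factors was 10, and 5 with a −log10 p of at least 8. The lost promoters were those of EEF1A1, described above, EIF4A1 (86.4), EIF3E (73.2), EIF4E, the cap-binding protein (67.6), EIF3B (45.7), EIF3J (37.7) and EIF2S2 (2.60), and EIF4A1, EIF3E and EIF4E had an E-box. Ribosomal protein genes had 4 lost, 3 gained and 0 kept promoters of 85. Splicing factors had 6 lost (8.33%), 5 kept and 4 gained promoters of 72, with SRSF3, SF3B1 and HNRNPA1 among the lost. Respiratory chain genes had 4 lost, 2 kept and 3 gained promoters of 87, and proteasome genes 3, 1 and 4 of 48.

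Hypoxia and glycolysis genes were nearest to a gained peak in 15 of 41 cases (36.6%), a lost one in 11 (26.8%) and a kept one in 9 (22%), beside 12.2%, 5.52% and 4.85% of all genes. With lists of equal length the counts were 7, 12 and 8, so the order of gained and lost depended on the length of the lists. Of glycolytic enzymes, some had lost E-box peaks, 258 bp upstream of LDHA, lactate dehydrogenase (chr11:18415629-18415954, 88.4), upstream of ENO1, enolase (37.7), and upstream of GPI (53.9), whereas PKM, pyruvate kinase, had a kept promoter peak (22.3 and 12.1) and a gained one (12.1). Lost promoter peaks without an E-box lay at SLC2A1, the glucose transporter GLUT1 (37.7), and PDK1 (21.6). Kept promoters included DDIT4 (84.9 and 83.9), NDRG1 (95 and 87.5), HIF1A, with an E-box (37.7 and 48.5), EGLN2 and ARNT, and gained ones included EGLN1, the oxygen-sensing prolyl hydroxylase, BNIP3 and ALDOA. Of the 14 lost peaks nearest to this list, 9 were overlapped by a shCNT HIF2α peak, as were 9 of 13 kept and 10 of 23 gained ones.

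Adhesion, matrix and actin genes were nearest to a gained peak more often than any other list. Gained peaks were nearest to 24 of 47 genes (51.1%, beside 12.2% of all genes), kept peaks to 9 (19.1%) and lost peaks to 9. With lists of equal length the gained count was 16. Of the 50 gained peaks, 12 had an AP-1 motif, 0 had an E-box and 5 lay within 1 kb of the start, and the median distance was 18.1 kb. AP-1 was thus about as frequent here as in all distal gained peaks (25.5%). The strongest were near PXN (88.3), MYO10 (88.1) and CCN1 (75.3), and gained peaks were also nearest to the integrin genes ITGA3, ITGA5, ITGAV, ITGB1, ITGB4, ITGB5 and ITGB6. The AP-1 motifs of 3 of the strongest such peaks, each at percentile 61.3, are given in capitals, again in 30 bases of the GRCh37 plus strand, as examples of the motif at distal gained peaks.
ITGB1, gained, chr10:33294405-33294434: cctaaggcaacTGACTCAggcttctcctgg
THBS1, gained, chr15:39420597-39420626: tcttgtcctgaTGAGTCActcactggttaa
ACTN4, gained, chr19:39143231-39143260: tggcagggagcTGACTCAccctccagttgg
The THBS1 peak lies 452585 bp from the start, so the assignment of that gene rests on distance alone.

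Sterol and fatty acid synthesis genes had the highest share of gained promoters. Of 24 genes, 7 (29.2%) had a gained peak within 1 kb, 3 a kept one and 3 a lost one. The shares of all genes were 4.22%, 2.53% and 2.53%. The gained promoters included those of LSS, lanosterol synthase (92.0), SREBF1, SREBF2 (45.2), ACLY (28.1), HMGCS1 (17.9) and ELOVL5 (1.77). FDPS, farnesyl diphosphate synthase, had a kept promoter peak (70.8 and 69.4). Of the named gained peaks, LSS alone stood above the 90th percentile, and SREBF1 and ELOVL5 had an E-box. The peaks named at ACLY, HMGCS1 and ELOVL5 rank too low to remain in lists of equal length.

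Immediate early genes were nearest to a kept peak in 5 of 19 cases (26.3%), a gained one in 6 (31.6%) and a lost one in 2 (10.5%). The shares of all genes were 4.85%, 12.2% and 5.52%. Kept peaks lay near ATF3, FOSB, IER2, JUNB and IER3, and a gained one at the FOSL2 start (80). Cell cycle genes had lost promoter peaks at CDK4, with an E-box (93.3), CDKN1B (76.1) and CDC25C (50.3), and gained ones at CCNE1, WEE1 and CDKN2C. Lysosome and autophagy genes had 5 gained, 3 lost and 1 kept promoter of 44 (11.4%, 6.82% and 2.27%), beside 4.22%, 2.53% and 2.53% of all genes. Renal lineage genes were nearest to 3 gained, 2 lost and 1 kept peak of 24 (12.5%, 8.33% and 4.17%). These shares lay near the 12.2%, 5.52% and 4.85% of all genes. Gained peaks here included those near PAX8 (66.9) and PAX2 (37.7). Genes that mark other tissues had 0 kept, 0 lost and 3 gained nearest peaks of 20, with no peak within 1 kb. C2H2 zinc finger genes, with 20 kept, 24 lost and 39 gained of 508, and histone genes, with 1, 1 and 5 of 79, lay below the nearest-gene share of all genes in every class.

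**Figure D5:**
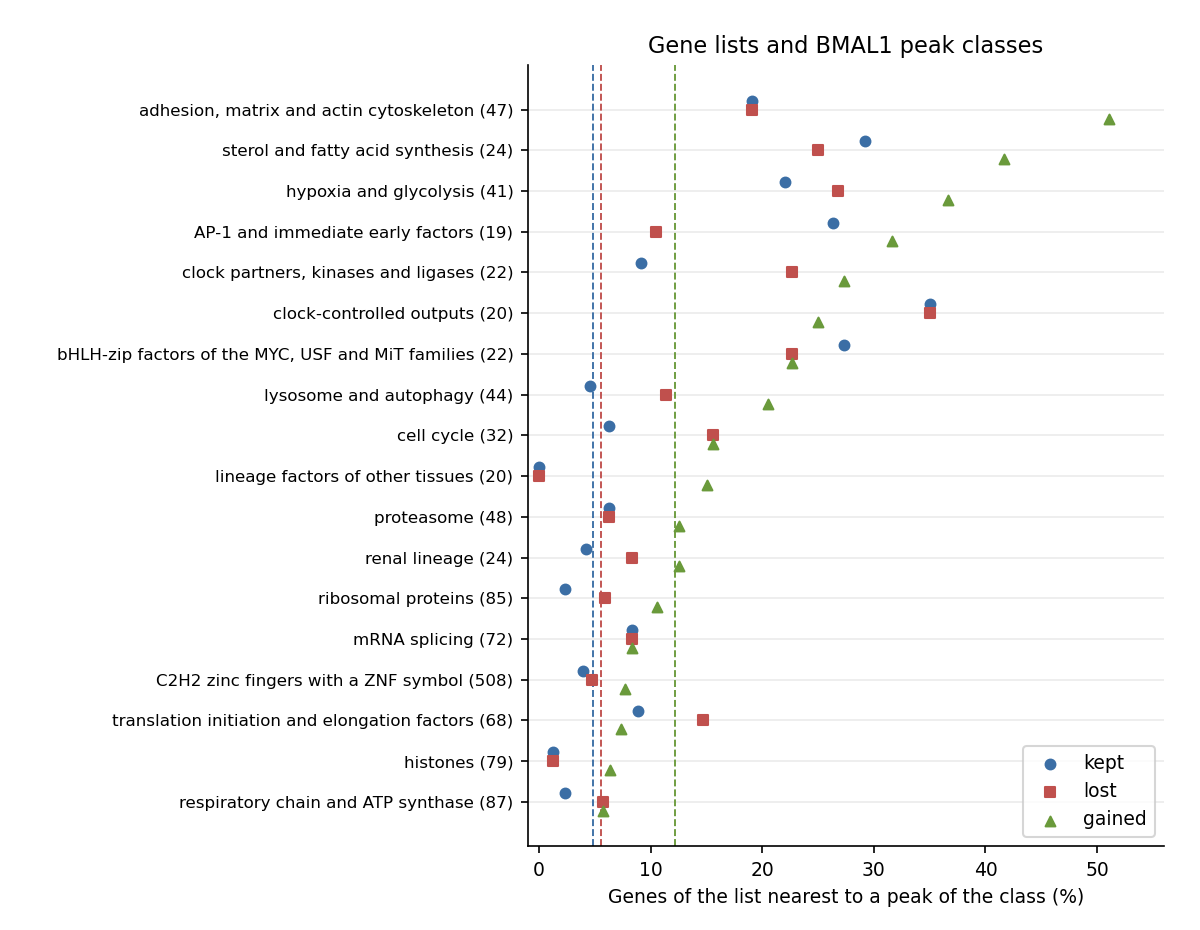
Percent of the genes of each list (x axis; y axis, lists with their size in brackets) that are nearest to a kept, lost or gained peak, with dashed lines at the share of all protein-coding genes. The adhesion list lies at 51.1% for gained peaks beside 12.2% of all genes, and translation factors at 14.7% for lost peaks beside 5.52%.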

How the data were processed

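CUT&RUN peaks of BMAL1 in A498 cells took their groups from the sample titles, which name shRNA and antibody. Per the submitters' processing notes and methods, reads were aligned to hg19 (GRCh37) with Bowtie2 2.5.3, duplicates were removed, and peaks were called with MACS2 2.2.9.1 under a p-value cutoff of 1e-05, joining gaps up to 400 bp, and blacklisted regions were removed with bedtools 2.31.1. Each list gives a deposited fold, a linear ratio of pileup to background, a p-value and a q-value written by the authors as −log10, and a deposited integer score, which was not used. Pileup and background were solved from fold and p-value, which gave whole pileups for 100% of peaks within 0.001. Depth per library is not known from these files, and intervals cover counting error only.

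Peaks were classed by an overlap of at least 1 bp and ranked by −log10 p. Starts came from GENCODE release 44 mapped to GRCh37, and 20 motifs were searched on both strands in 200 bp windows. Shares carry Wilson and differences Newcombe 95% intervals. The members, motifs and 18 gene lists were chosen with earlier results of these data known. Genes were named by rule: outside 12 clock loci (the PER and CRY genes, NR1D1, NR1D2, BHLHE40, BHLHE41, DBP, TEF and CIART, with 10 kb to either side), the 6 strongest promoter peaks, 6 strongest E-box peaks and 4 strongest distal peaks of each class, the 5 widest rises and falls in rank, and up to 3 members of each gene list and class; other list members were named after their values were seen. Some list members are not reported here. Other settings were tried: a stricter −log10 p (8 or more), lists of equal length, an overlap of 50%, peaks within 400 bp, a pileup of at least 5, shCNT peaks that pass at the shBMAL1 depth, other promoter and motif windows, and the set on BMAL1 exons and the EEF1A1 start left out. The steps for overlap, pileup and motifs were run on simulated data first. HIF2α lists were used for overlap only, and IgG libraries and spike-in tracks were not used here. Python 3.11.15, numpy 2.4.6, scipy 1.17.1 and pandas 2.3.3 were used.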

Additional observations from a re-analysis of the deposited data

How the results depend on the processing

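Of 8 main values, none changed direction under 15 alternatives, and 55 of 74 recomputed values stayed within the interval of the main value. The kept share moved to 45.0% with a −log10 p of at least 8, 37.3% with lists of equal length, 43.4% with an overlap of 50%, 49.3% within 400 bp, 43.0% with a pileup of at least 5 and 56.1% among shCNT peaks that pass at the shBMAL1 depth. The gained share moved to 62.7% with lists of equal length, 76.0% with an overlap of 50% and 64.6% with a pileup of at least 5. The difference in median percentile was 12.4 at the stricter threshold and 9.0 at the shBMAL1 depth. Both used percentiles of the full list, so leaving out weaker peaks narrows this difference in itself. At the shBMAL1 depth the promoter difference was -23.0 points and lost minus kept for the E-box 8.61 points. That E-box difference was 2.23 points in 100 bp windows and 7.83 points at promoters. Gained minus kept for the E-box was -3.12 points in 100 bp and -6.91 points in 400 bp windows, and for AP-1 it was 1.10 points at distal peaks. The HIF2α difference was 16.9 points with the shBMAL1 HIF2α list. Leaving out the clock loci, or taking kept peaks from the shBMAL1 list, were chosen after seeing the data and moved no value out of its interval. Of 54 counts of genes by list and class, 31 moved by over 1.5 times at the stricter threshold, 21 with lists of equal length, 19 at the shBMAL1 depth and 17 with a pileup of at least 5. Of 53 named peaks, 42 kept their class at the stricter threshold, 47 in lists of equal length, 51 with an overlap of 50%, 49 with a pileup of at least 5 and 53 within 400 bp.

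No paired analysis was possible because each group has 1 peak list and no values per replicate, and single replicates could not be left out for the same reason. Classes depend on thresholds: 53 lost and 52 gained peaks lay within 400 bp of a peak of the other list, and 37 kept peaks overlapped by under 50 bp.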

Other observations

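Chromosome 19 held 14.9% of kept peaks, 5.79% of lost peaks and 6.76% of gained peaks, beside 7.37% of protein-coding genes; it was singled out after its values were seen. Of 237 shCNT BMAL1 peaks on it, 165 were kept (69.6%, 63.5 to 75.1%), whereas on the 16 other chromosomes with at least 50 such peaks the kept share lay between 26.5% (chromosome 11, with the 14 peaks on BMAL1 exons among the lost) and 53.2% (chromosome 9). The share was 70.3% at promoters and 68.4% at distal peaks of chromosome 19, against 46.4% and 43.4% elsewhere. In the weaker part of the list, below the 50th percentile, 53.1% were kept against 36.3% elsewhere, and in the stronger part 78.2% against 54.2%. Median GC content of the windows was 62.0% against 56%, and the median local background was 0.183 against 0.223 fragments in shCNT and 0.0961 in both under shBMAL1. HIF2α peaks were not more frequent there, at 7.16% of the shCNT and 6.44% of the shBMAL1 list.

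Several genes were nearest to clusters of gained peaks. GLIS3, MYC and SEPTIN9 had 8 gained peaks each, SOX9 had 7, of which 5 had an AP-1 motif, TNS3 had 7 and TGFB2 had 6, and none of these had an E-box. Kept peaks clustered at MYC, with 6, and at RIPK4, a kinase of epithelial differentiation, with 5 peaks between percentile 71.9 and 94.0, of which 3 had AP-1 and 1 an E-box. The 14 lost peaks on BMAL1 exons are left out of these counts. Other lost clusters were smaller, with 5 peaks each at ASPH and IRF2BP2 and 4 each at GSE1 and HDAC4. In gained peaks 144 of 2444 genes (5.89%) were nearest to at least 3 peaks, against 19 of 974 (1.95%) for kept peaks and 19 of 1107 (1.72%) for lost peaks. The gained class also has the most peaks, 3151 against 1106 kept and 1244 lost, and they lie farther from starts. The part of this in the clusters was not tested.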
